A study of Mus musculus with 2 samples.

Results

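Transcribed regions of the mouse adrenal gland that carry RNA on both DNA strands were examined. The deposited table in mm9 lists 404827 contigs, which are stretches of genome covered by RNA reads of 1 strand. Of these, 220321 (54.4%) had a score in column 8 of 0.1 or less, the authors' measure of reproducibility, and these are called passing contigs. A passing contig was a member if it overlapped a passing contig of the opposite strand by 100 bases or more. This chose 11513 contigs, or 5.23% of the passing ones, with 5789 on the plus strand and 5724 on the minus strand. They formed 6289 pairs, each of 1 plus-strand and 1 minus-strand contig. The level of a contig is its summed coverage (column 9) divided by its length, and the strand ratio of a pair is the level of the weaker contig over that of the stronger. Levels are averages over whole contigs, not over the overlapping bases alone. Members were selected on the score and on the extent of coverage, both read-outs of these libraries, so numbers, levels and strand ratios are descriptions without a test.

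The RNA came from adrenal glands of adult C57BL/6J mice at 8 weeks of age, taken from littermates of both sexes, with the sex of a sample marked as not collected. The single group holds 2 libraries, called biological replicates 1 and 2, and the labels give both the same donor. Poly(A) RNA of more than 200 nt, freed of ribosomal RNA, was made into stranded libraries and read as pairs of 76 nt. No treatment or genotype was compared, so the data answer where and at what level both strands were transcribed, and each per-gene value is given for both libraries. Mouse genes held 47615328 expected counts in replicate 1 and 52890686 in replicate 2. The tissue label was met by its markers: the 7 cortex genes lay between 145 and 19341 TPM (transcript share scaled to a fixed total) and the 4 medulla genes between 308 and 2420 TPM. Fat genes were also present, with Cfd, an adipocyte protease, at 9884 and 3984 TPM in replicates 1 and 2, while Alb of liver was at 0.34 and 6.39 TPM and Kap of kidney was at 0 in both. In bulk tissue a lower level cannot be told apart between fewer cells of a type and less RNA per cell.

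Both DNA strands of a locus can be templates. Neighbouring genes may start from 1 shared promoter and run apart, so that their 5′ ends overlap, or may run towards each other and overlap at their 3′ ends. Many active promoters, mostly rich in CpG, also start short upstream antisense transcripts, most of which are degraded quickly. Antisense RNAs that overlap exons of a coding gene can pair with its mRNA or interfere with its transcription, and the Thra and Nr1d1 genes are a textbook case of coding genes that share 3′ exons.

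Genes that start close together on opposite strands carried several of the highest pairs, so the promoters of 4 such gene pairs are shown. Each is the RefSeq window of the plus-strand gene on GRCm38.p6, plus strand, from 250 bases before the start to 50 after it, so the plus-strand start is at position 251. Capitals mark the bases that also lie in the same window of the minus-strand partner. The windows are those of Col4a2 with Col4a1 (chr8:11312555-11312854), Ssr4 with Idh3g (chrX:73786773-73787072), Rxrb with Slc39a7 (chr17:34031562-34031861) and Yrdc with 1110065P20Rik (chr4:124850509-124850808).
Col4a2: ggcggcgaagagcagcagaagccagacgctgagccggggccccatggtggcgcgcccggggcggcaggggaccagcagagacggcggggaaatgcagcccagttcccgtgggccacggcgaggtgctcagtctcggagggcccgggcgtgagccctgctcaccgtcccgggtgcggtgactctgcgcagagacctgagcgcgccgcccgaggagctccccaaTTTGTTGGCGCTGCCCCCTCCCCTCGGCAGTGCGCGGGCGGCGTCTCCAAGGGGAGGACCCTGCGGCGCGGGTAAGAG
Ssr4: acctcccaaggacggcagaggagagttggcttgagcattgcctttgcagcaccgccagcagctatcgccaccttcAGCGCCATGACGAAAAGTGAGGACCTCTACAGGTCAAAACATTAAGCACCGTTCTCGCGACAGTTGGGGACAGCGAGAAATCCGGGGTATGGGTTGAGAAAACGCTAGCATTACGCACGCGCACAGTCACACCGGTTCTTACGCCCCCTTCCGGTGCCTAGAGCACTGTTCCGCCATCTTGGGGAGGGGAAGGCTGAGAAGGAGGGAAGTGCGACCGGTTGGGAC
Rxrb: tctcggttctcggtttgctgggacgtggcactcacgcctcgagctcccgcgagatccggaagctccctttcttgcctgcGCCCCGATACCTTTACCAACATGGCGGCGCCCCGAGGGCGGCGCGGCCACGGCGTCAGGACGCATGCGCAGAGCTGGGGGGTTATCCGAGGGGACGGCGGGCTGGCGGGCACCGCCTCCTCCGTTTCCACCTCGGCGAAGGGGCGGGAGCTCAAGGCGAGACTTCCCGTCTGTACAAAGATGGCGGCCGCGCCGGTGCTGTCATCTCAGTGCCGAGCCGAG
Yrdc: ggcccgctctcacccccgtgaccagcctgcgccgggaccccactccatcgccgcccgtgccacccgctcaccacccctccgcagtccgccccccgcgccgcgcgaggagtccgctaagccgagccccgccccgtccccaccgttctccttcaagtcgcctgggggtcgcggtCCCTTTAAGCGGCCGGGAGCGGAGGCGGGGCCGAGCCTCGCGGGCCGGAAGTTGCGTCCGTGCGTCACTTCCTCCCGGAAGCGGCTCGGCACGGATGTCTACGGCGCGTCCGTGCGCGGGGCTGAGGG
The minus-strand start fell at position 272 for Col4a1, 125 for Idh3g, 129 for Slc39a7 and 222 for 1110065P20Rik. By these RefSeq starts, Col4a2 and Col4a1 begin 21 bases apart with first bases that overlap. By the same starts Ssr4 and Idh3g run apart from 126 bases, Rxrb and Slc39a7 from 122 and Yrdc and 1110065P20Rik from 29. The GENCODE annotation differs for the last pair. Its gene bodies of Yrdc and 1110065P20Rik overlap by 518 bases, and those of Col4a2 and Col4a1 by 22. The stretch shared by the windows is 78 bases long for Col4a2, 225 for Ssr4, 221 for Rxrb and 128 for Yrdc. All 4 windows held more CpG than the median of 7 over 27025 RefSeq windows. There were 33 in the Col4a2 window, 20 in that of Ssr4, 37 in that of Rxrb and 44 in that of Yrdc. Over genes whose introns were matched to junctions here the median was 21, just above Ssr4. Of the printed pairs, those of Col4a2, Ssr4 and Rxrb are among the highest. That of Yrdc is not, and was taken for a ratio near 1 and a long overlap. The window of Paf1, which with Med29 is another of the highest pairs, held 14 CpG and is not printed.

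The pairs were spread over the genome as small, separate loci. Linked through shared contigs, they made up 5224 loci, of which 4418 (84.6%) held exactly 2 contigs. Most members (10573, 91.8%) had 1 partner, 847 had 2, and 93 had 3 or more, up to 7. The overlap was 263 bases long at the median, with quartiles of 185 and 390 bases and a longest value of 2071 bases. By chromosome, the share of passing contigs that were members ran, outside Y (0 of 2) and the mitochondrial genome (2 of 8), from 3.08% on X to 7.02% on chromosome 19, and was 6.85% on chromosome 11 and 6.67% on chromosome 17. No contig overlapped another of its own strand. Members were longer than the other passing contigs (median 455 against 313 bases), and the overlap rule itself favours long contigs. Their median level was 21.2 per base against 14.7.

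Most pairs had 1 dominant strand. The strand ratio had a median of 0.272, with quartiles of 0.120 and 0.544. The strands lay within 2-fold of each other in 1772 pairs (28.2%), the weaker was below 0.1 of the stronger in 1278 (20.3%), and below 0.01 in 102 (1.62%). The plus strand was the stronger in 3126 pairs (49.7%). The weaker strand had a median of 11.2 per base and the stronger one of 55.5. In 3497 pairs (55.6%) column 8 was 0 in both contigs. Near the limits of the rule, the 5862 contigs with a score of 0.10 had a median level of 4.70 per base and the 8680 at 0.11 had 4.45. The 101 pairs that overlapped by 100 to 104 bases had a median ratio of 0.214, and the 138 pairs at 95 to 99 bases, just outside, one of 0.292.

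The ratio fell as the stronger strand rose. Its median was 0.741 where the stronger strand was under 10 per base (516 pairs), 0.231 between 30 and 100 (1990 pairs) and 0.0243 at 1000 or more (203 pairs). Both strands must be called, so a low pair cannot have a low ratio, and this order is in part fixed by the rule. The median of the weaker strand was 5.11, 12.2 and 41.5 per base in these classes, a rise that the classes also fix in part, since the weaker strand cannot exceed the stronger. Of the 102 pairs below 0.01, 70 had a stronger strand of 1000 or more and 32 one between 300 and 1000. A high level did not bring an opposite-strand call with it in most places: of 3982 passing contigs at 1000 per base or more, 194 (4.87%) were members, against 6.73% of those between 30 and 100. Reads assigned to the wrong strand would add weak contigs opposite strong ones; their part in these pairs was not tested.

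**Figure D1:**
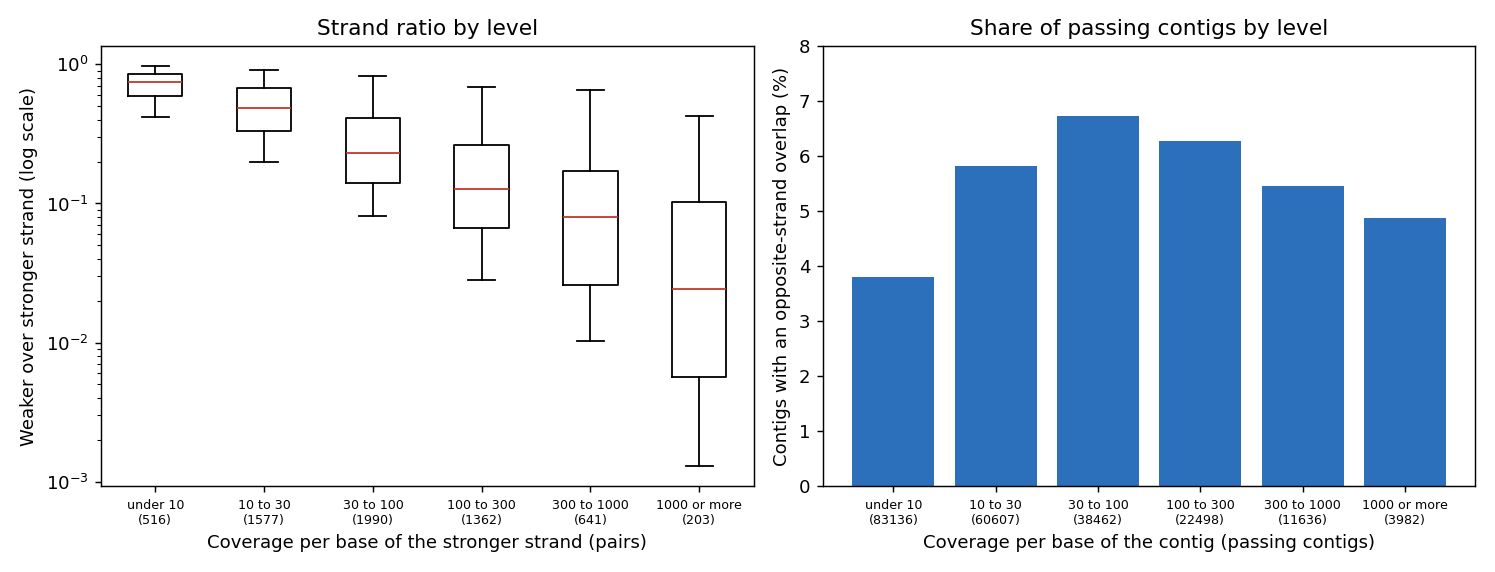
Left, strand ratio (weaker over stronger, log axis) of the 6289 pairs by the coverage per base of the stronger strand, with the median as a red line, quartiles as the box and the 5th and 95th percentiles as whiskers. Right, share of passing contigs that had an opposite-strand overlap, by the coverage per base of the contig itself. The median ratio falls from 0.741 to 0.0243, while the share of members peaks at 6.73% between 30 and 100 per base and is 4.87% at 1000 or more.

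Splice junctions were not used by the rule. A junction end of the contig's own strand, from a junction with a score of 0.1 or less, lay in or next to (within 10 bases) 4338 of the 11513 members (37.7%). This compares with 91697 of the 208808 other passing contigs (43.9%), and with 43.6% of all passing contigs. The order rests on the score filter: with all junctions, whatever their score, the share was 64.0% for members and 54.5% for the other passing contigs. The second of these values was computed after seeing the data. With the filter, at like levels the gap was widest in the middle of the range: between 30 and 100 per base 57.8% of members had such an end against 78.7% of the others, and between 10 and 30 per base 22.5% against 42.8%. At 1000 or more the order turned, with 96.9% against 94.8%. A junction end of the opposite strand was found in 2943 members (25.6%), against 1.69% of all passing contigs, in part because an overlap with the partner's exon is how members were chosen. In 2223 members (19.3%) the only junction ends were those of the opposite strand.

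Over pairs, both strands were spliced by this measure in 611 (9.72%), the stronger strand alone in 3175 (50.5%), the weaker alone in 407 (6.47%) and neither in 2096 (33.3%). With all junctions, also computed after seeing the data, these numbers became 2712, 2321, 440 and 816, so many contigs without an end had ends of junctions with a higher score. The median ratio was 0.566 for pairs spliced on the weaker strand alone, 0.449 for neither, 0.288 for both and 0.160 for the stronger alone. The weaker strand had a median of 50.9 per base where both were spliced, 20.2 where it alone was, 12 where only the stronger was and 7.71 where neither was. A junction is called from reads and members with an end rose from 4.9% under 10 per base to 96.9% at 1000 or more, so these classes also sort pairs by level. Of the 102 pairs with a ratio below 0.01, 90 were spliced on the stronger strand alone.

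**Figure D2:**
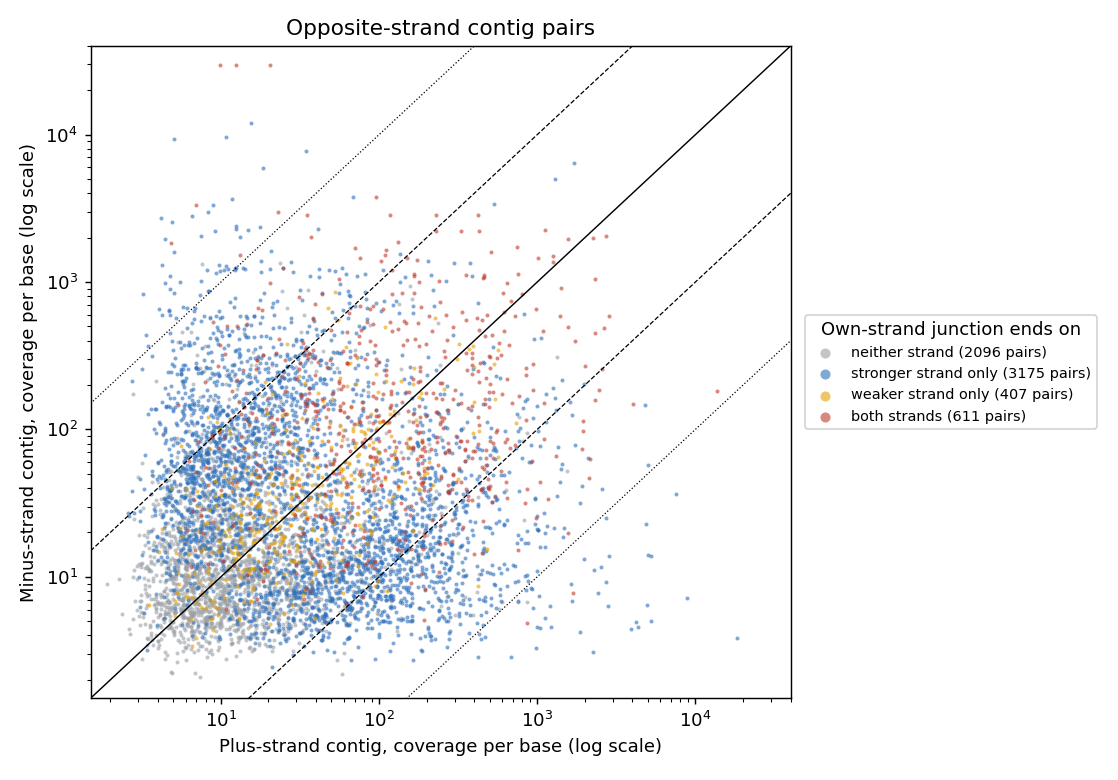
Each point is 1 of the 6289 pairs, with coverage per base of the plus-strand contig on the x axis and of the minus-strand contig on the y axis, both on log scales, coloured by which strand had own-strand junction ends with a score of 0.1 or less. The solid line marks equal strands, dashed lines a 10-fold and dotted lines a 100-fold difference. The 611 pairs spliced on both strands reach highest along the equal line, and the 2096 spliced on neither lie mostly at low levels.

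Genes were attached through introns. The contigs and junctions are in mm9 and the annotation used here, GENCODE M21, is in GRCm38, so no position was carried over. Instead, junctions were matched to annotated introns by chromosome, strand, intron length and the spacing to a neighbouring intron. This gave 1 gene to 85530 of 107960 passing junctions (79.2%), covering 10322 genes, and a gene name to 3013 members (26.2%). Both strands were named in 223 pairs (3.55%), 1 strand alone in 2891 (46.0%) and neither in 3162 (50.3%). Where 1 strand was named, it was the stronger in 2573 pairs (89.0%). A name needs junctions, which are found more often on high contigs, so this share is set in part by how names were given. A contig with no name can still belong to a gene, since a last exon may hold no matched intron end.

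Against the gene's outermost matched introns, pairs named on 1 strand lay between them in 1672 cases (57.8%), on the 5′ side in 843 (29.2%) and on the 3′ side in 376 (13.0%). On the 5′ side 422 of 843 pairs were head to head, which means that the minus contig lay to the left and neither was inside the other, and 72 were tail to tail. On the 3′ side the counts were 75 head to head and 69 tail to tail of 376. Over all pairs 2163 (34.4%) were head to head, 1056 (16.8%) tail to tail and 3070 (48.8%) had 1 contig inside the other. A contig end need not be the end of a transcript. The unnamed strand had a median of 0.197 of the named one on the 5′ side, 0.176 between introns and 0.155 on the 3′ side, so its relative level differed little with place.

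**Figure D3:**
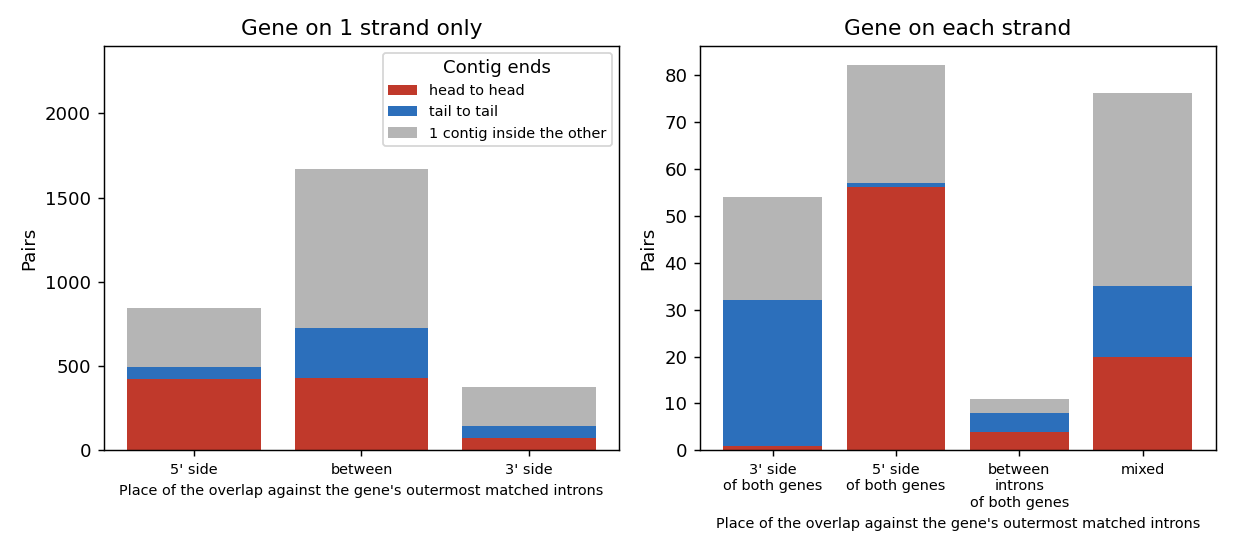
Number of pairs by the place of the overlap against the gene's outermost matched introns, for pairs with a gene on 1 strand (left) and on both (right), split by how the contig ends lie. In pairs with a gene on each strand, 56 of the 82 on the 5′ side of both genes are head to head and 31 of the 54 on the 3′ side of both are tail to tail.

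The 223 pairs with a gene on each strand came from 187 gene pairs and 367 genes. In 171 of these gene pairs (91.4%) both were protein-coding. The GENCODE annotation has the gene bodies overlap in 144 (77.0%) and exons overlap in 136 (72.7%). Of 184 gene pairs with a level for both, both genes reached 1 TPM in each library in 183 (99.5%). The choice of matched, covered introns favours expressed genes. The gene of the stronger contig was also the higher by TPM in 127 of 184 (69%) in replicate 1 and 125 (67.9%) in replicate 2. The median log2 ratio of its TPM over its partner's, computed on log2(TPM + 1) and averaged over both libraries, was 0.85. It was 1.00 in replicate 1 alone and 0.79 in replicate 2 alone (SD of these medians 0.15, n = 2 libraries). The order of the partners by TPM differed between the libraries in 10 gene pairs (5.43%). Of 363 genes with a mean of at least 1 TPM, 4 (1.1%) were 2-fold or more higher in replicate 1, against 2.89% of all 12922 such genes, and 2 (0.551%) in replicate 2, against 2.31%. The 4 were Clic3, Klc3, Mterf3 and Ttc19 and the 2 were Rwdd2a and Srr, named after their values were seen.

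The overlap was on the 5′ side of both genes in 82 gene pairs. Their median ratio was 0.299, and 27 were within 2-fold. The outermost GENCODE starts were within 1000 bases in 73 of the 82 (89.0%) and within 300 bases in 50 (61.0%). The highest of all named pairs on its weaker strand was Col4a2 and Col4a1, which encode chains of type IV collagen, the main collagen of basement membranes. The Col4a2 contig (chr8:11312454-11313119, mm9) stood at 2265 per base and the Col4a1 contig (chr8:11312183-11313313) at 1998, over an overlap of 666 bases. Col4a2 was at 114.7 and 114.6 TPM in replicates 1 and 2, and Col4a1 at 133 and 120. Both genes and both strands thus lay at nearly the same level, in the locus whose promoter window is the first printed above.

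Ssr4 encodes a subunit of the translocon-associated complex of the endoplasmic reticulum, and Idh3g a subunit of the mitochondrial NAD-dependent isocitrate dehydrogenase. Their contigs (chrX:71032339-71033131 and chrX:71032103-71032454, mm9) overlapped by 116 bases at 1568 and 1970 per base. By TPM Ssr4 was at 257 and 336 and Idh3g at 257 and 275, so the genes were level in replicate 1. Rxrb, a retinoid X receptor, and Slc39a7, a zinc transporter, overlapped by 635 bases (chr17:34168681-34170679 and chr17:34167003-34169315) at 1259 and 1377 per base. Here the genes were less alike than the contigs, with Rxrb at 123 and 113 TPM and Slc39a7 at 303 and 340 TPM. Paf1, a subunit of an elongation complex of RNA polymerase II, and Med29, a Mediator subunit, were at 1253 and 1497 per base over 289 bases. Paf1 was at 326 and 396 TPM and Med29 at 72.5 and 87.9 TPM, so the contig with the higher mean belonged to the lower gene.

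Yrdc, an enzyme of tRNA modification, and 1110065P20Rik overlapped by 1256 bases with a ratio of 0.989, at 621 and 628 per base. Their genes were also close, at 48.7 and 44.7 TPM for Yrdc and 70.4 and 63.1 TPM for 1110065P20Rik. The pair of Smg6, a nuclease of nonsense-mediated decay, and Srr, serine racemase, had a ratio of 0.928 at 105 and 113 per base. Smg6 was at 27.7 and 31.8 TPM and Srr at 2.45 and 5.19 TPM. Rhbdd3 and Ewsr1, an RNA-binding protein, had a ratio of 0.989 at 51.3 and 50.7 per base, while Rhbdd3 was at 60.6 and 37.9 TPM and Ewsr1 at 443 and 393 TPM. In the pairs of Srr and Ewsr1, near-equal means over contigs on the 5′ side of both genes stood beside TPM values that differed several-fold in both libraries. The longest overlap on the 5′ side was that of Bad, a pro-apoptotic member of the BCL2 family, and Gpr137, at 1450 bases with 87.7 and 654 per base.

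**Figure D4:**
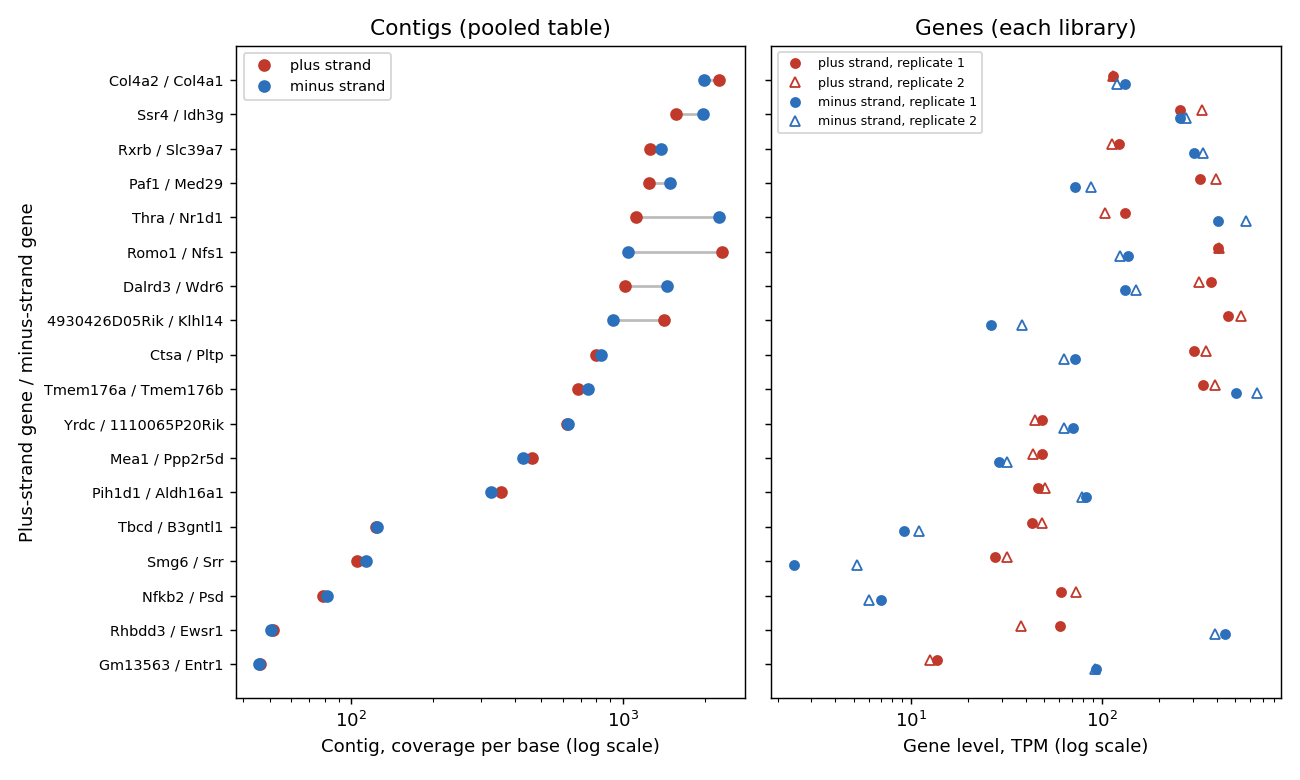
The named pairs with the highest weaker strand and those with the ratio nearest 1, ordered by the weaker strand. Left, coverage per base of each contig in the pooled table (log axis, red for plus, blue for minus). Right, TPM of the same genes in each library (log axis, filled circles for replicate 1, open triangles for replicate 2). Col4a2 and Col4a1 lie together in both panels, whereas Rhbdd3 and Ewsr1 lie together on the left and apart on the right.

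One RefSeq window was taken per gene, the most upstream, and 134 of the 164 genes had one. They held a median of 29 CpG and 66.0% G and C, beside 7 and 52.7% over all 27025 windows, which include genes not expressed in this tissue. The 8128 windows of the 10316 genes with matched introns, which are expressed here, held 21 CpG and 61.3%, much nearer to the gene pairs. Genes with any opposite-strand overlap on their 5′ side (771 windows for 998 genes) held 26 and 65.7%. On either strand TATAAA was in 2.99% of the 134 windows of the gene pairs and in 14.2% of all 27025. The shares for CCAAT were 36.6% and 38.0%, for GGGCGG 76.1% and 35.9%, and for CCGGAA 42.5% and 15.2%. Over the genes with matched introns the shares were 6.55% for TATAAA, 37.6% for CCAAT, 67.1% for GGGCGG and 27.9% for CCGGAA, and over those with a 5′ overlap 4.15%, 30.7%, 73.4% and 30.5%. GGGCGG is made of G and C alone, so its share moves with base composition. Among the printed windows GGGCGG is in those of Col4a2, Rxrb and Yrdc, CCGGAA in those of Ssr4, Rxrb and Yrdc, CCAAT in that of Col4a2, and TATAAA in none. These are matches of letters in a window and say nothing of what binds there. The genes with matched introns and those with a 5′ overlap had a window for a smaller share than was required for a comparison. That check is therefore void, and the values of both sets stand as description.

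Where the overlap lay on the 3′ side of both genes (54 gene pairs), the median ratio was 0.397, and 21 were within 2-fold. The annotated gene bodies overlapped in 48 of the 54 (88.9%), against 50 of 82 (61.0%) on the 5′ side. Ctsa, the lysosomal protective protein cathepsin A, and Pltp, a phospholipid transfer protein, met at their 3′ ends over 312 bases (chr2:164664578-164665476 and chr2:164665018-164665329, mm9). Their contigs were at 796 and 829 per base, while Ctsa was at 306 and 351 TPM and Pltp at 72.3 and 63.5 TPM. Dalrd3 and Wdr6 overlapped by 671 bases (chr9:108472888-108475316 and chr9:108474646-108478953) at 1019 and 1460 per base. Dalrd3 was at 374 and 322 TPM and Wdr6, a WD-repeat protein, at 133 and 150 TPM.

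Tbcd, a tubulin folding cofactor, and B3gntl1 had the ratio nearest 1 on the 3′ side, at 0.992, with 124 and 125 per base. Mea1 and Ppp2r5d, a regulatory subunit of protein phosphatase 2A, were at 465 and 428 per base, and Nfkb2, an NF-κB subunit, and Psd at 78.4 and 81.8. By TPM the order was the same in both libraries for all of these pairs, with Tbcd at 43.0 and 48.7 above B3gntl1 at 9.22 and 11.0, Mea1 at 48.6 and 43.7 above Ppp2r5d at 28.9 and 31.8, and Nfkb2 at 61.2 and 73.0 above Psd at 7.0 and 6.06. The long overlaps here were those of A530016L24Rik with Tmem179 (1844 bases, 293 and 50 per base), Pcif1, an RNA cap methyltransferase, with Zfp335 (1466 bases, 182 and 267) and Narfl, an iron-sulphur assembly factor, with Haghl (1399 bases, 119 and 182). The annotation has no overlap of A530016L24Rik and Tmem179, whose contigs overlapped all the same. This was also so on the 5′ side for Ssr4 with Idh3g, Rxrb with Slc39a7 and Paf1 with Med29. Dbp, a clock-controlled transcription factor, and Sphk2, a sphingosine kinase, were chosen after their values were seen, and overlapped by 214 bases at 2850 and 585 per base. Dbp was at 584 TPM in replicate 1 and 807 in replicate 2, and Sphk2 at 93.0 and 90.4.

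Thra, the thyroid hormone receptor alpha, and Nr1d1, the clock repressor REV-ERB alpha, were the listed partners found together in 1 pair. The Thra contig (chr11:98629366-98630320, mm9) lay wholly inside that of Nr1d1 (chr11:98629182-98634558), an overlap of 955 bases, at 1119 and 2267 per base. Junctions that end in them had 176 reads on the Thra side and 13423 on that of Nr1d1. Thra was at 132 and 104 TPM, and Nr1d1 at 406 and 573 TPM, higher than Thra in both libraries. The Nr1d1 contig is 5377 bases long and its level is a mean over that length, so the ratio of 0.494 is not that of the shared bases.

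Of the list of 26 genes known to overlap an opposite-strand gene, 18 had matched introns and 7 had a member pair under their name. Surf2 paired with Surf1, an assembly factor of cytochrome oxidase, at 269 and 404 per base with a ratio of 0.666 over 448 bases on the 5′ side of Surf1. Its listed 3′ partner, Surf4, gave its name to no member, although 2 further Surf2 contigs overlapped unnamed contigs at 10.3 and 6.96 per base. Gnas, the stimulatory G protein alpha subunit, was at 502 with a contig at 66.7 on the other strand that had no own-strand junction end. Trp53, Wrap53, Tbp, Pdcd2, Igf2r, Uchl1 and Xist had matched introns but gave their names to no member. Contigs of theirs that took no name could still be members. Fgf2 and Hand2 had no intron matched, so no contig could take their names. Xist was at 5.70 and 12.9 TPM and its antisense Tsix at 0 in both libraries.

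Tnxb, the extracellular matrix protein tenascin X, had the most member pairs of any listed gene, at 18. In 14 of these the minus-strand contig had no gene, with 5.12 to 36.8 per base beside 70.1 to 322 for Tnxb, so Tnxb was the stronger in each. In the other 4 the minus strand was 1 contig at 2861 per base, named Cyp21a2-ps, a pseudogene of the steroid 21-hydroxylase, over which Tnxb contigs stood at 35.0, 118, 230 and 422. In the annotation the bodies of Tnxb and Cyp21a2-ps overlap by only 3 bases. Tnxb was at 23.5 and 23.4 TPM and Cyp21a2-ps at 790 and 908 TPM. Cyp21a2-ps and Cyp21a1 are nearly identical, and how the authors split reads between them is uncertain, so the pseudogene's level is too. Tnxa, a pseudogene related to Tnxb, was at 0.61 and 0.46 TPM.

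Of 26 adrenal genes, 24 had matched introns and 6 had a member pair under their name. In 5 of these 6 the opposite strand was far lower. Cyp21a1 makes glucocorticoid and mineralocorticoid precursors. Its contig of 9893 bases had 29761 per base, the highest of all members, against 9.83, 12.5 and 20.5 for the contigs on the other strand, the last named Tnxa. Star, the cholesterol carrier into mitochondria, was at 8887 against 7.17, and Fdxr, the ferredoxin reductase of steroidogenic mitochondria, at 11985 against 15.5. Cyp11b1, the steroid 11-beta-hydroxylase, had contigs at 7802 and 2279 against 34.8 and 12.5, and Nr5a1, the steroidogenic factor 1, was at 1363 against 27.8. The ratios ran from 0.00033 for Cyp21a1 to 0.0204 for Nr5a1. All these stronger contigs were at 1000 per base or more, where the median ratio over all 203 pairs was 0.0243. In that class 34.5% of pairs lay below 0.01, so low ratios are not particular to these genes. Of the pairs of these genes, all but that of Nr5a1 lay below 0.01. The contigs opposite Star, Fdxr and Nr5a1 had no own-strand junction end, also with all junctions, and those opposite Cyp11b1 had 1 and 2 ends of junctions with a score above 0.1.

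Chgb, a granin of chromaffin granules, was the exception. A plus-strand Chgb contig of 2749 bases stood at 95.5 per base and an unnamed minus-strand contig at 86.4, over 1766 bases (chr2:132618066-132620814 and chr2:132618064-132619831, mm9). The ratio was 0.904, against a median of 0.231 over all pairs with a stronger strand between 30 and 100 per base. The minus contig had no own-strand junction end with a score of 0.1 or less and 2 with a higher one. Chgb itself was at 290 TPM in replicate 1 and 147 in replicate 2, higher in replicate 1, and the contig table, being pooled, does not say how either strand of this locus differed between them. Chga, Th, Dbh and Pnmt, the other medulla markers, gave their names to no member, nor did Cyp11a1, Hsd3b1, Scarb1 and Fdx1 of the cortex. These genes nevertheless lay between 308 and 3908 TPM. Contigs of theirs that took no name could still be members.

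Some overlaps lay at an end of 1 gene and inside the other, or between the introns of both. Romo1, a mitochondrial membrane protein, and Nfs1, a cysteine desulfurase of iron-sulphur cluster synthesis, overlapped by 570 bases at 2326 and 1044 per base. Romo1 was at 409 and 414 TPM and Nfs1 at 137 and 125, so the order by contig was that by TPM. Tmem176a and Tmem176b, related membrane proteins whose shared sequence may split reads, were at 684 and 744 per base, with 338 and 394 TPM for Tmem176a and 506 and 655 TPM for Tmem176b. Pih1d1, of the R2TP chaperone complex, and Aldh16a1 were at 357 and 328 per base. Klc1, a kinesin light chain, overlapped Xrcc3, a DNA repair protein, in several pairs. The 2 long ones, of 1642 and 1279 bases, had Klc1 at 91.7 and Xrcc3 at 206 and 53.9 per base. In a further pair, of 487 bases, another Klc1 contig stood at 459.5 per base against the Xrcc3 contig at 53.9. The longest overlap of all was between contigs of Adck5 and Cpsf1, a subunit of the cleavage and polyadenylation factor, at 2071 bases with 425 and 209 per base. In the annotation the bodies of these genes overlap by only 14 bases. Adck5 was at 304 and 309 TPM and Cpsf1 at 48.5 and 52.2.

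In 16 gene pairs (8.56%) the partner of a coding gene was annotated as noncoding or as a pseudogene, and that partner had the stronger contig in 4, taking the first pair by position for each. These partners were 4933439C10Rik (opposite Zkscan17), Cyp21a2-ps, 4930426D05Rik and Gm26550 (opposite Lypd3), of which the first and the last are named after their values were seen. The antisense gene 4930426D05Rik was at 1417 per base and Klhl14, a Kelch-like protein, at 917, over 1502 bases. 4930426D05Rik was at 459 and 538 TPM and Klhl14 at 26.3 and 38.0 TPM, higher for the antisense gene in both libraries. Gm13563, annotated as antisense, and Entr1 had the ratio nearest 1 of all named pairs, 0.9996, at 45.9 per base on each strand. A further Entr1 contig, at 56.9 per base, overlapped Gm13563 by 619 bases, with a ratio of 0.807. By TPM Entr1 was at 93.5 and 92.1 and Gm13563 at 13.7 and 12.6. Gm49417, also antisense, was at 91.3 against 518 for Sorbs3, an adhesion protein, over 1593 bases. Chosen after their values were seen, Tbx3, a T-box transcription factor, and its antisense Tbx3os1 were at 475 and 222 per base, with 973 and 852 TPM for Tbx3 and 41.2 and 26.9 TPM for Tbx3os1. Cd81, a tetraspanin, and R74862 were picked in the same way, at 13623 and 183 per base.

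Among pairs named on 1 strand, 5 were taken for the highest unnamed strand. Opposite Sparc, a matricellular protein at 5036 and 6414 TPM, a contig of 142 bases stood at 2708 per base, above the 2047 of the Sparc contig, with 1 junction of 7 reads. Opposite Mpst, a mitochondrial sulfurtransferase, the unnamed contig was at 1527 against 13.3 for the Mpst contig, with 2110 junction reads against 87. Ciz1 was at 120 per base against 1214 on the unnamed strand, which had 5542 junction reads. Opposite Cyb5r3, the cytochrome b5 reductase, a contig with no own-strand junction end of a score of 0.1 or less, and 26 of higher scores, was at 1289 against 4971. Opposite Enoph1, an enzyme of methionine salvage, the unnamed strand was at 1123 against 353. Junction reads were thus many on the unnamed strands opposite Mpst and Ciz1 and few opposite Sparc.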

How the data were processed

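Both libraries form 1 group and none was left out. The authors' contig table in mm9 gives a coverage signal (column 9, and column 7 scaled) and a reproducibility score (column 8), and their junction table a read count and a score. From the values, column 9 is coverage summed over the contig and column 7 the same per base, divided by a constant of 18.9 to 19.3. Both tables were taken as pooled. No source used here states the score's direction. Low was read as better, and the choice of members rests on that. The deposited gene tables give expected counts, TPM and FPKM per library, made from mm10 transcriptome alignments and M4 gene models, per the deposited readme files. Aligner, quantifier and contig tool are not given in the sources used.

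Pairs, ratios and layout were computed in Python 3.11.15 with pandas 2.3.3, numpy 2.4.6 and scipy 1.17.1. Pair finding and intron matching were tested on simulated data. A gene needed 2 consecutive introns matched, with introns of 1 gene only and a placement in keeping (within 1000 bases) with most of its other introns. A contig took a name from an own-strand named junction ending in it or within 10 bases. Detection was 1 TPM in both libraries, and log2 ratios of TPM used a pseudocount of 1. No mm9 genome was used here, so no contig sequence is given. RefSeq windows were matched by symbol. Sums of expected counts leave out spike-ins. Contigs are not replicates and 1 group has no contrast, so no test was run.

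Named were the 10 pairs with a gene on each strand and the highest weaker strand, the 10 with the ratio nearest 1 above the median weaker strand of all pairs, the 10 with the longest overlap, the 5 with a name on 1 strand and the highest unnamed strand, and pairs of a list of 26 genes known to overlap and one of 26 adrenal genes. The pair of 1 listed gene is not reported here. Members and lists were chosen with earlier results of these data known. Alternatives were other limits on the score, overlap, junctions and TPM, the FPKM, and each library alone.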

Additional observations from a re-analysis of the deposited data

How the results depend on the processing

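Of 55 values under alternatives, 44 stayed within their margin. The margin was 1.5 times for counts and a binomial interval for shares and for the median strand ratio. For the TPM ratio it was the spread between libraries. The binomial intervals treat contigs or pairs as independent, which they are not, so they serve as margins only. Of these values only the median log2 TPM ratio has a sign, and it stayed positive under every alternative. Counts, shares and the strand ratio have no sign, so they could not change direction. The number of members ran from 8040 to 14675, that of pairs from 4389 to 8316, and the median ratio from 0.271 to 0.277. Against 37.7%, the share of members with an own-strand junction end was 40.1% with scores of 0.05 or less, 43.6% with 0.01 or less, 64.0% with all junctions (54.5% in the other passing contigs, so the order of the sets turned) and 35.5% with junctions of at least 10 reads. Against 5.23%, the share of passing contigs that were members was 6.66% with an overlap of 1 base, 3.78% with 200 bases and 4.76% with 50% of the shorter contig. The share of pairs tail to tail, 16.8%, became 20.0%, 14.6% and 14.8% under these. The median log2 TPM ratio of named pairs was 0.79 to 1.00 with either library left out, and the pairs with both genes detected numbered 183 in each. The cause of these moves was not tested. No paired analysis was possible because the study has 1 group.

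The contig table is pooled, so no strand level has a replicate error, and coverage from amplified reads without molecular identifiers is not a count of molecules. Weak contigs near 5 per base limit which low strands can be seen. Levels of near-identical genes are uncertain.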
